A study of Mus musculus with 10 samples.

Results

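The genes described here are 40 genes of DNA replication and cell division, chosen by name: 16 that act in the S phase of the cell cycle and 24 that act in mitosis. All 40 are among the 54838 gene identifiers of the count table, and 38 of them had any count, 14 of replication and 24 of mitosis. They were measured by strand-specific total RNA sequencing in group 2 innate lymphoid cells (ILC2), tissue lymphocytes without antigen receptors that make type 2 cytokines such as IL-5 and IL-13. The cells were sorted from mouse lungs as lin-CD90.2+ST2+/-KLRG1+/- cells. All mice were of the C57BL/6 strain, and all were cohoused littermates with lung inflammation raised by papain, a protease allergen. The WT group (5 libraries) carried the intact gene of the transcription factor c-Maf, and the KO group (5 libraries) was c-Maf KO. The cells in which the gene was deleted, the part removed, the age of the mice and the papain schedule were not stated in the sources used here. Library numbers follow the accession order and pair no WT with a KO library. Whether the libraries of a group come from different mice is not in the labels, and p-values then measure only the spread among these libraries. Each library title carries a number of its own, whose meaning is not stated, and every KO number lies above every WT number. Anything that follows this order cannot be told apart from genotype.

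A dividing cell copies its DNA in S phase and parts the copies in mitosis. For the first step the helicase MCM2-7 is loaded on replication origins by CDC6 and switched on with CDC45 and the GINS complex, the clamp PCNA holds the polymerases on DNA, and ribonucleotide reductase and thymidylate synthase supply the nucleotides. For the second, cyclins A and B switch on the kinase CDK1, spindle kinases and motors align the chromosomes, and the anaphase-promoting complex (APC) ends mitosis. Most of these transcripts rise and fall with the cycle, under the control of E2F factors, the DREAM complex and FOXM1. In bulk RNA, fewer dividing cells and less of these RNAs per cell cannot be told apart.

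The WT libraries held 21400938 to 24489987 counts and the KO libraries 3620002 to 9867580, with 10577 to 12744 genes seen at least once in WT and 4052 to 7660 in KO. The 100 strongest genes made up 93.43% of KO library 1, against 48.82 to 61.01% in the other 9 libraries. All 12 ILC2 markers looked at, among them Gata3, Il1rl1, Il7r and Rora, had counts in both groups, and 0 of the 12 was called lower or higher. Of the other cell types, 5 of 5 tested erythroid markers were higher in KO and 2 of 2 tested macrophage and dendritic markers lower. Of B cell, T cell, granulocyte, and epithelial and stromal markers 1, 2, 1 and 2 were tested, 0 of them called. No NK cell marker was tested. Summed erythroid markers (8 listed) ran from 6.27 to 13.3 CPM in WT and from 191 to 1070000 CPM in KO. These CPM are scaled by the TMM factors given below, so they are not shares of a library. Summed macrophage and dendritic markers (10 listed) ran from 4.19 to 315 CPM in WT and from 0 to 36.5 CPM in KO. Cd68, Itgax, Xcr1 and Cd14 were at 0 in KO. Summed epithelial and stromal markers ran from 33 to 97 CPM in WT and from 0.713 to 3150 CPM in KO. For B cell markers the ranges were 16 to 91.4 and 0 to 285 CPM, and for T cell markers 12.2 to 68.9 and 0.876 to 43.5 CPM. Those of granulocyte markers were 0.0894 to 9.29 and 0 to 72.9 CPM. The part of these cells in the results below was not tested. All KO libraries were shallower than all WT libraries and spread their counts over fewer genes, so depth and genotype cannot be told apart. Levels are raw counts or CPM, counts brought to a common library size after TMM scaling, which sets the bulk of genes equal between libraries. The TMM factor lay between 1.462 and 1.908 for WT libraries and between 0.1803 and 0.9276 for KO libraries, lowest in KO library 1, where few counts make a high CPM.

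The proliferation genes were present in WT ILC2 and mostly missing from the KO libraries, as were many other genes of like WT level. A gene is called seen in a library here when it had over 3 counts. Over the 14 replication genes and 5 libraries, 59 of 70 gene-by-library values were seen in WT and 10 of 70 in KO. Over the 24 mitosis genes these were 86 of 120 and 12 of 120. In KO, 24 of the 38 measured genes were seen in no library, 8 in 1, 5 in 2 and only Top2a in 3 or more, and 16 were at exactly 0 throughout. Under 1 CPM in WT, 75% of these genes and 56.1% of all genes were at 0 throughout KO. These shares were 62.5 and 50.8% at 1 to 2 CPM, 50 and 40.5% at 2 to 5 CPM, and 0 and 24% at 5 to 10 CPM. At 10 to 20 CPM they were 16.7 and 9.16%, and at 20 to 50 CPM 0 and 1.89%. In KO, 36% of all values of the 7490 tested genes were seen, and 24.7% of those of the 17 tested proliferation genes. Tested genes passed a filter met mainly through WT, which fixes their high WT shares (98.5% and 96.5%), so the drop between the groups is no result. KO library 1 was the exception, with 41.2% of these 17 genes seen against 18% of all tested genes, and in the other 4 KO libraries the share was 11.8 to 29.4% against 35 to 45.4%.

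**Figure D1:**
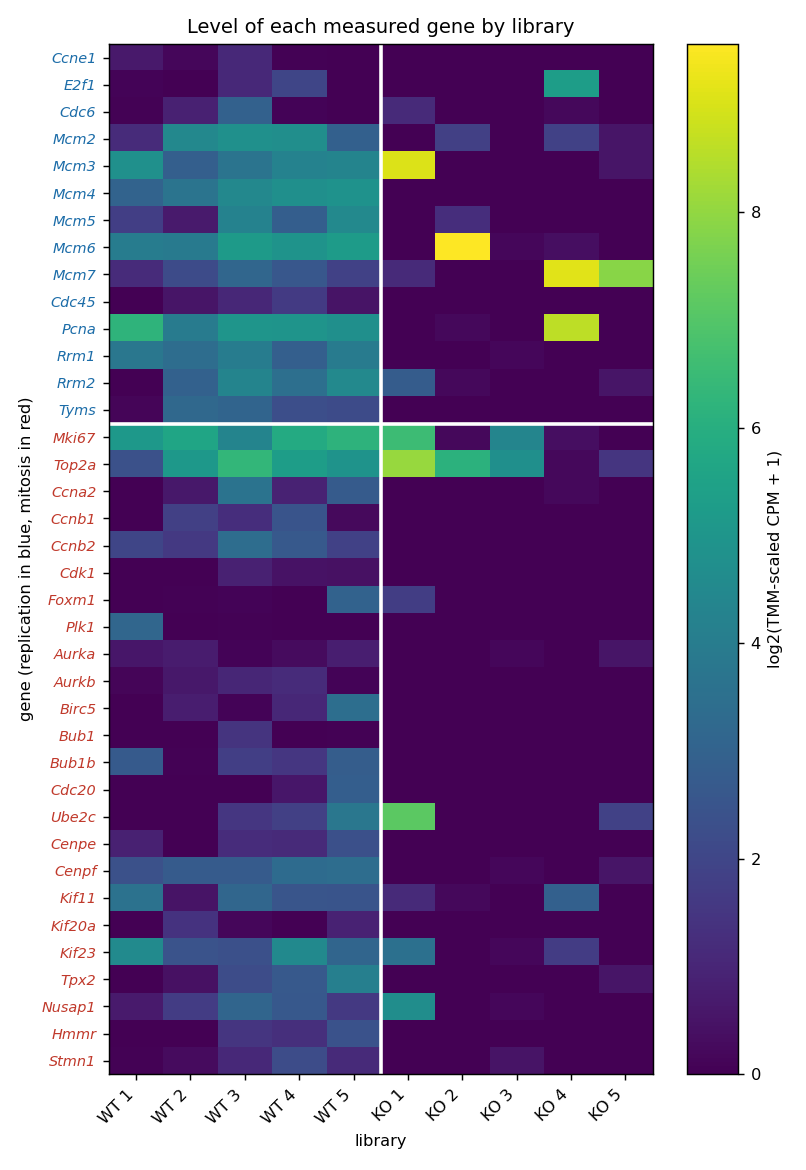
Heat map of log2(CPM + 1) with TMM scaling for the 38 measured genes (rows, replication in blue type and mitosis in red) in 10 libraries (columns). WT columns are filled for most rows, and KO columns are dark apart from single bright cells such as Mcm6 in KO library 2 and Mcm7 in KO libraries 4 and 5.

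**Figure D2:**
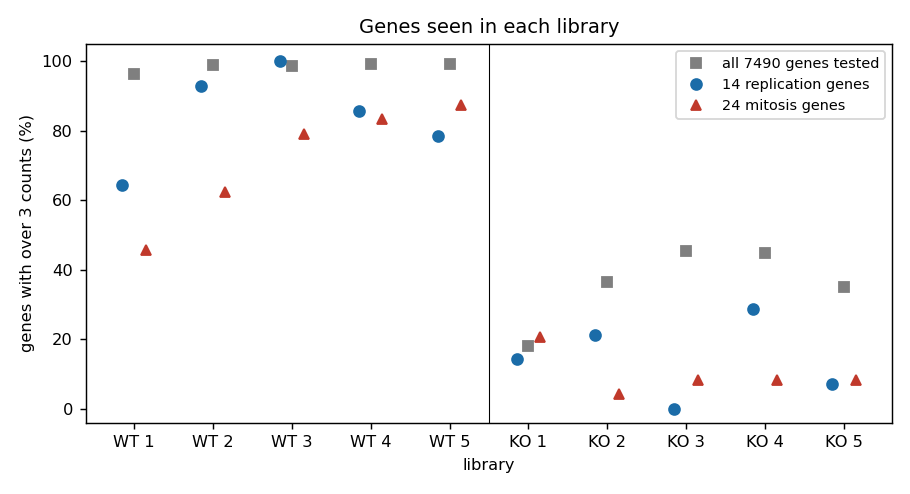
Percent of genes with over 3 counts in each library, for the 14 replication genes (circles), the 24 mitosis genes (triangles) and all 7490 genes tested (squares). Mitosis genes run from 45.8% in WT library 1 to 87.5% in WT library 5 and from 4.17 to 20.8% in KO.

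Of the replication genes, 3 fell in KO, the helicase subunits Mcm4 and Mcm5 and the large subunit of ribonucleotide reductase, Rrm1, and 0 rose (edgeR quasi-likelihood test, Benjamini-Hochberg adjusted p under 0.05 over 7490 genes). They were 3 of 9 tested, 33.3%, where 27.1% of all tested genes were called lower and 1.5% higher. The genes of the MCM ring, 6 subunits that work as one hexamer, were all seen in every WT library, and 1, 3, 0, 2 and 1 of them in KO libraries 1 to 5. These 7 of 30 KO values stand beside 36% of the KO values of all tested genes.

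Mcm4 (ENSMUSG00000022673, GRCm38 chromosome 16, 15623897 to 15637400, minus strand, protein coding) had 253, 526, 694, 1179 and 1254 counts in WT libraries 1 to 5, against 0 in every KO library. Every KO library lay below every WT library. The WT level was 18.9 ± 9.15 CPM (SD, n = 5). Pooled over the libraries, the WT counts per scaled library size were at least 155-fold above the floor of 3 counts over the KO group. The fitted log2 fold change, -11.74 (with SE 2.19, edgeR adjusted p = 0.00163), depends on how zeros are handled and is no bound. At the WT mean level the 5 KO libraries would have held 16.1, 126, 138, 133 and 43.1 counts, and 0 were counted.

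Mcm5 (ENSMUSG00000005410, GRCm38 chromosome 8, 75109569 to 75128439, plus strand, protein coding) had 86, 28, 602, 280 and 958 counts in WT libraries 1 to 5, against 0, 9, 0, 0 and 0 in KO. With TMM scaling KO library 2 lay above the lowest WT library, at 1.35 against 0.626 CPM, and the groups overlapped. Per library size it lay below, at 0.991 against 1.14 CPM, and they did not. Its level was 9.83 ± 9.53 CPM for WT and 0.27 ± 0.604 CPM for KO (SD, n = 5 each), with a log2 fold change of -4.91 (with SE 1.56, edgeR adjusted p = 0.0227). Without KO libraries 1 and 5 together it no longer passed (log2 fold change -4.45, edgeR adjusted p = 0.0781, with 0.00708 to 0.0438 over single libraries left out).

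Rrm1 (ENSMUSG00000030978, GRCm38 chromosome 7, 102441695 to 102469771, plus strand, protein coding) had 444, 429, 502, 295 and 653 counts in WT libraries 1 to 5, against 0, 0, 1, 0 and 0 in KO. No KO library reached the lowest WT library. It was the steadiest of the 38 genes among the WT libraries, at 11.8 ± 3.66 CPM (SD, n = 5). The ratio of scaled counts, WT over KO, was 277 (exact 95% counting interval 49.7 to 11000), with a log2 fold change of -8.05 (with SE 1.48, edgeR adjusted p = 0.00163). Intervals and floors cover counting error only, and no molecular identifiers tell copies of 1 molecule apart.

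The promoter windows of Mcm5 and Rrm1 are shown because both genes fell and the windows differ in the E2F letters searched here. E2F sites are elements known from S-phase promoters. RefSeq (GRCm38.p6) gives chr8:75109259-75109558, plus strand, for Mcm5 and chr7:102441445-102441744, plus strand, for Rrm1, from 250 bases before to 50 after the start, 5′ to 3′. Capitals mark CCAAT, the CHR letters TTTGAA or TTTAAA, and the E2F letters TTTCCCGC, TTTCGCGC, TTTGGCGC or TTTGCCGC, on either strand.
Mcm5: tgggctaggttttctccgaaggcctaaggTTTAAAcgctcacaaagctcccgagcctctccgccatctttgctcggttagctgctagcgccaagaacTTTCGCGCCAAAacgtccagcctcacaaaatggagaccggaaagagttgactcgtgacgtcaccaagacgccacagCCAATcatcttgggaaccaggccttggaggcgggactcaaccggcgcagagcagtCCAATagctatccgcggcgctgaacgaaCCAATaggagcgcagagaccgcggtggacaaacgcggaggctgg
Rrm1: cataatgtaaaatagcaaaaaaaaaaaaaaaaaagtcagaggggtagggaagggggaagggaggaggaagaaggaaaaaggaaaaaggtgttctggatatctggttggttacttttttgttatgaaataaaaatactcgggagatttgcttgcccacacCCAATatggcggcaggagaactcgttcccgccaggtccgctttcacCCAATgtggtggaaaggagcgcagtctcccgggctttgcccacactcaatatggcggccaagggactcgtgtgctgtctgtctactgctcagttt
The RefSeq window of Mcm5 ends before the start of the GENCODE gene model. It held 2 overlapping E2F matches, from -153 and -149 counted from 0 at the annotated start, 3 CCAAT matches and 1 CHR match. Rrm1 held 2 CCAAT matches, from -91 and -45, and none of the other letters searched. Its window holds gttcccgc, which differs from TTTCCCGC in the first letter alone, so the contrast in E2F letters depends on the letters chosen. No promoter window was found for Mcm4.

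The other 4 helicase subunits did not pass, and for Mcm3 and Mcm6 a single KO library carried nearly all KO counts. Mcm2 had 44, 931, 887, 1136 and 289 counts in WT libraries 1 to 5, against 0, 17, 0, 18 and 1 in KO (log2 fold change -3.76 with SE 1.46, edgeR adjusted p = 0.0651). It passed as lower without KO library 2, 3 or 4 (edgeR adjusted p = 0.0422, 0.0496 and 0.0389; up to 0.126 over all single libraries left out), with library size alone (log2 fold change -5.08, edgeR adjusted p = 0.0273) and with DESeq2 (log2 fold change -3.39, adjusted p = 0.0406).
Mcm3 had 944, 285, 389, 802 and 840 counts in WT against 447, 0, 0, 0 and 1 in KO. KO library 1 gave 99.8% of these and lay above every WT library at 526 CPM, while the other 4 KO libraries lay below every one. The log2 fold change was 2.68 (with SE 2.27, edgeR adjusted p = 0.445), and without KO library 1 it was -7.79 and passed (edgeR adjusted p = 0.00738; up to 0.59 over single libraries left out).
Mcm6 had 534, 632, 1185, 1314 and 1643 counts in WT against 0, 5027, 1, 2 and 0 in KO. KO library 2 alone held more counts than any WT library, at 754 CPM against a WT range of 14.1 to 37.4 CPM. The log2 fold change was 2.52 (with SE 2.15, edgeR adjusted p = 0.447), and -7.39 without that library, where it passed (edgeR adjusted p = 0.00598; up to 0.58 over single libraries left out).
Mcm7, described after its values were seen, had 44, 160, 264, 227 and 115 counts in WT against 1, 0, 0, 3910 and 525 in KO. KO libraries 4 and 5 lay above every WT library and the other 3 below. Its log2 fold change of 5.27 (with SE 2.31) missed the threshold (edgeR adjusted p = 0.107). It passed as higher without KO library 2 or 3 (edgeR adjusted p = 0.0365 and 0.0359; up to 0.219 over single libraries left out) and with DESeq2 (adjusted p = 0.0113, log2 fold change 5.54; DESeq2 called 13.5% of genes higher). Of the exon bases of Mcm7, 14.8% lie inside the span of other genes, the microRNAs of its intron, Ap4m1 and Cops6, so its counts are less certain.

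Pcna, the sliding clamp, had 2561, 658, 1033, 1353 and 1157 counts in WT libraries 1 to 5, against 0, 1, 0, 2697 and 0 in KO. KO library 4 lay above every WT library and the others below (a mean of 35.1 ± 22.4 CPM for WT and 76.9 ± 172 CPM for KO, SD, n = 5 each). The log2 fold change was 1.13 (with SE 2.09, edgeR adjusted p = 0.747), and without that library -9.15 (edgeR adjusted p = 0.00525; up to 0.847 over single libraries left out). Rrm2, the small subunit of ribonucleotide reductase, had 0, 301, 624, 464 and 954 counts in WT against 5, 1, 0, 0 and 1 in KO (edgeR adjusted p = 0.178). Its log2 fold change was -3.52, and -6.51 without KO library 1, where it passed (edgeR adjusted p = 0.0227; up to 0.321 over single libraries left out). The 3 nucleotide supply genes Rrm1, Rrm2 and Tyms together had 5617 counts in WT and 8 in KO, as raw sums over libraries of unlike depth.

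Of the replication genes with counts, 5 were too weak or too patchy for the main test. Tyms, thymidylate synthase, had 3, 371, 247, 175 and 155 counts in WT and 0 in KO. The origin factors Cdc6 and Cdc45 had 271 and 170 counts in WT and 2 and 0 in KO, with 229 of the 271 in WT library 3. Ccne1, the cyclin E1 that starts S phase, had 67 counts in WT, 39 of them in library 3, and 0 in KO. E2f1, a transcription factor of S-phase genes, had 178 counts in WT, 137 of them in library 4, and 274 in KO, all in library 4. Gins2, a GINS subunit, and Tk1, thymidine kinase 1, were at 0 in every library. All exon bases of both lie inside the spans of other annotated genes, Gse1 and Gm20388 for Gins2 and Afmid and Gm20708 for Tk1. Of 1828 protein-coding genes with over 90% of exon bases placed so, 89.5% were at 0 in every library, against 35.1% of 14131 without overlap, so both were treated as not measured.

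Of the mitosis genes, 2 fell in KO, cyclin B2 (Ccnb2), an activator of CDK1, and Cenpf, a protein of the outer kinetochore, and 0 rose. They were 2 of 8 tested, 25%, beside the 27.1% of all tested genes. Of the 16 not tested, 11 were at 0 in KO and the other 5 had 1 to 3 KO counts in all, against 59 to 1109 counts in WT. None of these 16 was seen in all 5 WT libraries.

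Ccnb2 (ENSMUSG00000032218, GRCm38 chromosome 9, 70407692 to 70421547, minus strand, protein coding) had 104, 88, 323, 239 and 116 counts in WT libraries 1 to 5, against 0 in every KO library. Its WT level was 4.51 ± 3.16 CPM (SD, n = 5), and the pooled WT counts were at least 34.6-fold above the floor over the KO group (fitted log2 fold change -9.68 with SE 1.71, edgeR adjusted p = 0.00163).
Cenpf (ENSMUSG00000026605, GRCm38 chromosome 1, 189640606 to 189688086, minus strand, protein coding) had 144, 252, 190, 419 and 422 counts in WT libraries 1 to 5, against 0, 0, 1, 0 and 1 in KO. The ratio of scaled counts, WT over KO, was 85.1 (exact 95% counting interval 23.5 to 704), with a log2 fold change of -6.06 (with SE 1.28, edgeR adjusted p = 0.00171).
For both genes every KO library lay below every WT library by CPM with TMM scaling. Among the 17 tested proliferation genes this held for Mcm4, Rrm1, Ccnb2 and Cenpf, 23.5%, and for 28.9% of all tested genes. The reverse, every KO library above every WT library, held for 0 of the 17 and for 0.774% of all tested genes.

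The promoter windows of both genes are shown because they carry CCAAT boxes and the CHR letters, the pair known from mitotic promoters that DREAM binds. The windows are chr9:70421505-70421804, minus strand, for Ccnb2 and chr1:189688037-189688336, minus strand, for Cenpf (RefSeq, GRCm38.p6), 5′ to 3′ in the direction of transcription, with the same capitals as above.
Ccnb2: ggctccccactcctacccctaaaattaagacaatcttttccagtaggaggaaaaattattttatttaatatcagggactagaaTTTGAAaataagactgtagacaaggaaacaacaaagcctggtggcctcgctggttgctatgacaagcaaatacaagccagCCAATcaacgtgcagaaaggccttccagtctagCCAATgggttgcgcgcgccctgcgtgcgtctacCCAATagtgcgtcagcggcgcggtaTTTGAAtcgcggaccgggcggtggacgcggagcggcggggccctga
Cenpf: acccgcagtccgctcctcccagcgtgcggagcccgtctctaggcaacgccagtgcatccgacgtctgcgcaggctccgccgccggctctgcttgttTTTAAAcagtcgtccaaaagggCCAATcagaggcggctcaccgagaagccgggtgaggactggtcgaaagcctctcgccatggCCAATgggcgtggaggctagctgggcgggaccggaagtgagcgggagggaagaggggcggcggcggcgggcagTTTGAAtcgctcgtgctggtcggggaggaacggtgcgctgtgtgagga
Ccnb2 held 3 CCAAT matches, from -87, -54 and -21, and CHR matches from -167 and 4. Cenpf held 2 CCAAT matches, from -132 and -71, and CHR matches from -154 and 2. A CHR match thus lay within the first 9 bases after the start in both.

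Promoter windows were found for 32 of the 40 genes, 33 windows in all. CCAAT was in 26 of the 33 (78.8%), against 37.4% of all 32851 windows of the table. CHR letters were in 16 of 18 mitosis windows (88.9%) and 6 of 15 replication windows (40%), against 27.6% of all windows. E2F letters were in 5 of 15 replication windows (33.3%), those of Cdc6, Mcm3, Mcm5, Mcm6 and Mcm7, and in 1 of 18 mitosis windows, that of Cdk1, against 2.26% of all windows. All windows include those of noncoding and poorly studied genes, which can differ in base composition. A match is a run of letters and not a shown binding site.

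Mki67 and Top2a, the common proliferation markers, were seen in 2 and 4 KO libraries and did not pass. Mki67, which encodes the coat of mitotic chromosomes Ki-67, had 1148, 2129, 628, 2529 and 3159 counts in WT libraries 1 to 5, against 80, 1, 142, 2 and 0 in KO. KO library 1 lay above every WT library by CPM with TMM scaling and below every one per library size, and 3 KO libraries lay below every one on both (a mean of 45.4 ± 20.5 CPM for WT and 22.8 ± 40.7 CPM for KO, SD, n = 5 each). The log2 fold change was -1.01 (with SE 1.76, edgeR adjusted p = 0.733), and it was 1.21 with RLE size factors.
Top2a, topoisomerase II alpha, had 144, 1470, 2627, 1747 and 1278 counts in WT against 233, 463, 191, 1 and 4 in KO. Its counts in KO libraries 1 to 3 lay inside or above the WT range by CPM, and libraries 4 and 5 lay below it. The log2 fold change was 1.01 (with SE 1.66, edgeR adjusted p = 0.713), and -1.34 with library size alone.

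The kinesin motors Kif23 and Kif11 did not pass. Kif23, a motor of cytokinesis, had 808, 200, 134, 996 and 335 counts in WT against 9, 0, 1, 16 and 0 in KO (log2 fold change -2.37 with SE 1.51, edgeR adjusted p = 0.29). It passed without KO library 1 (log2 fold change -4.28, edgeR adjusted p = 0.0442; up to 0.47 over single libraries left out).
Kif11, the motor that parts the spindle poles, had 387, 18, 261, 213 and 200 counts in WT against 1, 1, 0, 46 and 0 in KO (log2 fold change -1.81 with SE 1.32, edgeR adjusted p = 0.365). Without KO library 4 it passed (log2 fold change -4.84, edgeR adjusted p = 0.0329; up to 0.509 over single libraries left out). Kif20a, another motor, had 117 counts in WT and 0 in KO.

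The mitotic cyclins and CDK1 left almost no KO counts. Ccna2, Ccnb1, Ccnb2 and Cdk1 together had 2004 in WT and 1 in KO, a single Ccna2 count. These and the next sums are raw counts over libraries of unlike depth, and of these genes only Ccnb2 was tested. At their WT levels, 87.4 to 90.3% of all genes had 3 counts or fewer in 4 or 5 KO libraries. The regulators Foxm1, Plk1, Aurka, Aurkb and Birc5 had 1328 in WT and 4 in KO. Plk1 and Foxm1 rested on single WT libraries. WT library 1 held 276 of the 277 counts of Plk1, the polo-like kinase, and WT library 5 held 309 of the 313 counts of the transcription factor Foxm1. Of the 525 WT counts of Birc5, 441 were in WT library 5.
The spindle checkpoint genes Bub1 and Bub1b had 59 and 630 counts in WT and 0 in KO, with 57 of the 59 in WT library 3. Cdc20, the APC activator that the checkpoint restrains, had 293 and 0, with 271 of the 293 in WT library 5. Ube2c, the ubiquitin-conjugating enzyme of the APC, stood apart, as seen after its values were known. It had 0, 0, 62, 114 and 560 counts in WT against 121, 0, 0, 0 and 6 in KO (log2 fold change 3.07 with SE 2.39, edgeR adjusted p = 0.4), and 62.8% of its exon bases lie inside the span of another gene, Tnnc2.
Cenpe, a kinetochore motor, had 304 counts in WT and 0 in KO. Of the spindle proteins, Tpx2 had 1109 and 1, Hmmr 313 and 0, and Stmn1, which destabilizes microtubules, 264 and 3. Nusap1, which bundles microtubules, had 699 counts in WT and 22 in KO, 21 of them in library 1, without which its log2 fold change went from 0.36 to -6.26 and passed (edgeR adjusted p = 0.9 and 0.00861; up to 0.982 over single libraries left out).

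**Figure D3:**
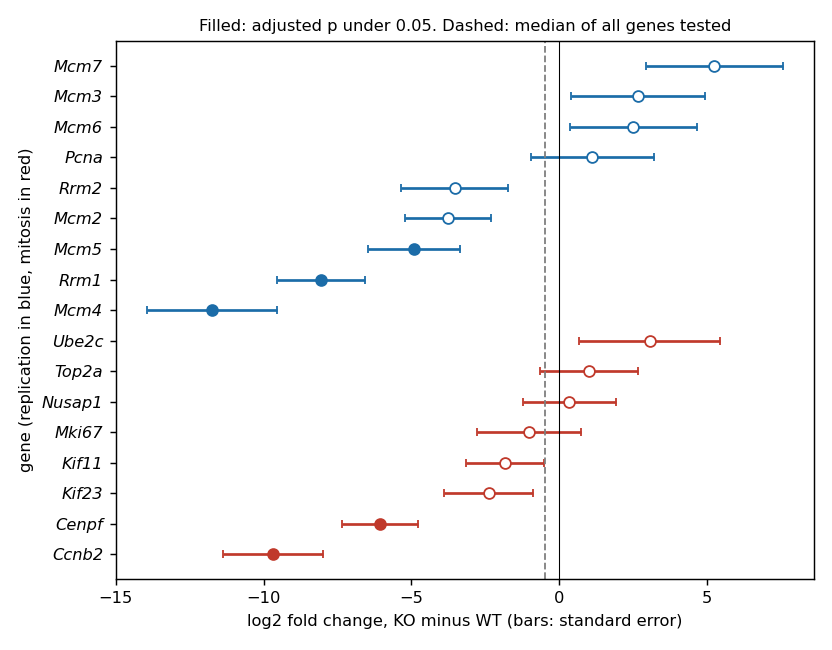
Log2 fold change, KO minus WT, of the 17 tested genes with standard errors (edgeR). Filled points passed an adjusted p of 0.05: Mcm4, Rrm1 and Mcm5 of replication (blue) and Ccnb2 and Cenpf of mitosis (red), all below the dashed median of all tested genes at -0.47.

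In all, 5 of the 17 tested proliferation genes were lower in KO, 29.4%, which is near the 27.1% of all tested genes. The median log2 fold change was -3.52 over the 9 tested replication genes and -1.41 over the 8 tested mitosis genes, beside -0.47 over all tested genes. Tested genes needed enough counts in at least 5 libraries, which most of these genes met through WT, so neither the count nor the medians describe all 38.

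The number called depended on the filter and on single KO libraries, and the same 5 genes were among the calls of every setting except 2, thinning and leaving out KO libraries 1 and 5 together. With no filter on low counts 13 of 38 genes were called lower (34.2%) and 0 higher, beside 15.9% and 12.3% of all genes. A filter of 10 counts in 3 libraries gave 12 of 31, beside 31.9%. DESeq2 gave 10 of 29 lower, beside 23.3%. Library size alone gave 8 of 17, with Kif23, Mcm2 and Rrm2 added, beside 31.1%, and voom 5 of 17, beside 33.2%. Thinning all libraries to the smallest total left 12 tested genes and 3 called, Cenpf, Mcm4 and Rrm1, beside 21.2%. Leaving out 1 KO library lowered the number of libraries that the filter asks for, so that 23 genes were tested each time. The calls were then 14 without KO library 1, 11 without 2, 10 without 3, 13 without 4 and 10 without 5, beside 33.7, 35.5, 37.9, 37.8 and 36.6% of all genes. Without KO libraries 1 and 5 together they were 11 of 31, beside 33.4%. Mcm3, Mcm6, Pcna, Rrm2, Kif23, Kif11 and Nusap1 each passed as lower without 1 library, the one with that gene's highest KO CPM. A lower fold change then follows from the choice of library.

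Summed over the genes, 4 of 5 KO libraries held more replication RNA per scaled count than any WT library, each through 1 or 2 genes. The summed level of the 14 replication genes was 98 to 203 CPM in WT (158 ± 40.6, SD, n = 5) and 534, 758, 0.274, 984 and 231 CPM in KO libraries 1 to 5. Per library size, KO libraries 1 and 5 lay below the WT range of 179 to 344 CPM, at 95.4 and 146 CPM, and KO libraries 2 and 4 above it. In KO a single gene held 98.5% of the replication counts in library 1 (Mcm3), 99.4% in library 2 (Mcm6) and 99.4% in library 5 (Mcm7), and in library 4 Mcm7 held 56.7%. In WT the first gene held 17.5 to 21.2%, apart from Pcna in WT library 1 with 51.9%. These are shares of counts, not per length.
For the 24 mitosis genes the sum was 93.8 to 204 CPM in WT (146 ± 46.6) and 549, 69.8, 46.6, 9.41 and 5.7 CPM in KO libraries 1 to 5. Top2a held 99.6% of the 465 mitosis counts of KO library 2, and KO libraries 4 and 5 held 66 and 13 mitosis counts in all. KO library 1, whose TMM factor was lowest, was the only one above the WT range. Per library size it stood at 98.2 CPM, below the WT range of 136 to 383 CPM.

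**Figure D4:**
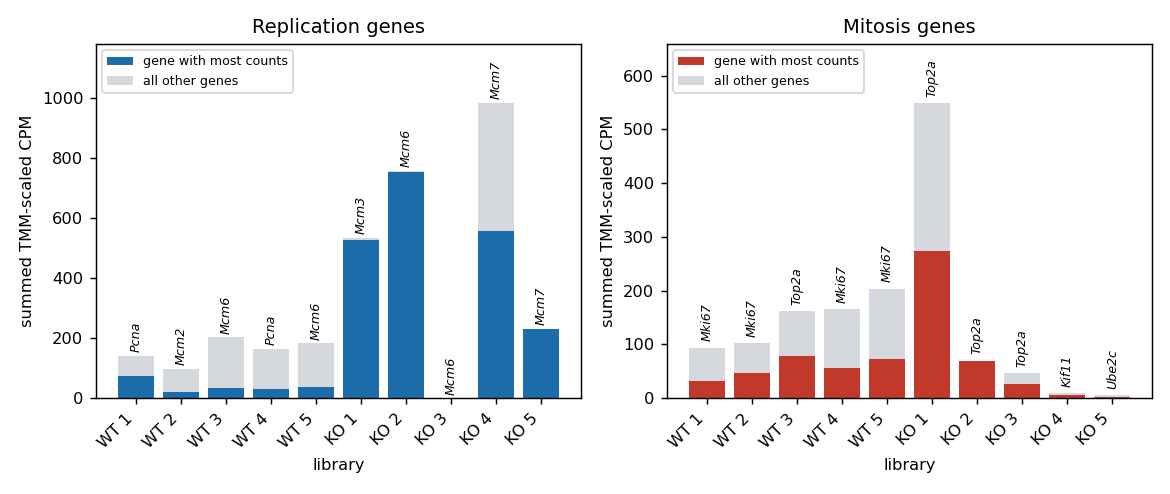
Summed CPM with TMM scaling of the replication genes (left) and the mitosis genes (right) in each library, split into the gene with the most counts (coloured, named above the bar) and all others (grey). The coloured part fills nearly the whole replication bar in KO libraries 1, 2 and 5, and 17.5 to 51.9% of it in WT.

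Over all measured genes, those of replication agreed better among the WT libraries than those of mitosis. The Spearman rho between pairs of WT libraries, across genes, had a median of 0.784 over the 14 replication genes (0.564 to 0.933 in 10 pairs) and 0.489 over the 24 mitosis genes (0.15 to 0.78). Over all tested genes it was 0.774 (0.715 to 0.846). These values are across genes, which are not replicates, and the pairs share libraries. For all 3 sets WT libraries 3 and 4 were the most alike pair. The mitosis genes were weaker, and the lower rho was not compared at like level.

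The 5 WT libraries differed in how many of the mitosis genes they held. WT libraries 1 to 5 had 11, 15, 19, 20 and 21 of the 24 over 3 counts, and 9, 13, 14, 12 and 11 of the 14 replication genes. WT library 1 lacked any count of 11 mitosis genes, among them Ccna2, Ccnb1, Cdk1, Birc5, Bub1, Cdc20, Tpx2 and Hmmr, yet held the most counts of Plk1 and Pcna. It alone was the lowest WT library for 8 of the 24 mitosis genes (33.3%) and shared the lowest place at 0 for 7 more, and it alone was lowest for 6 of the 14 replication genes (42.9%). Of all tested genes, 27.8% were lowest in WT library 1 alone, but the tested genes passed a filter and seldom tie at 0. WT library 5 was the highest for 11 of the 24 mitosis genes and 4 of the 14 replication genes, where it was highest for 20.3% of all tested genes. The mitosis sum was lowest in WT library 1 and highest in library 5, by a factor of 2.17, and the replication sum was lowest in library 2 and highest in library 3, by 2.07. Per library size, WT library 5 was highest for both sums.

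The coefficient of variation (SD over mean) among the WT libraries had a median of 0.712 over the measured replication genes (0.311 to 1.91) and 1.09 over the measured mitosis genes (0.354 to 2.23). It was lowest for Rrm1 and Cenpf, 2 of the genes that fell in KO, and highest for Plk1, Foxm1 and Bub1. All 7490 tested genes had a median of 0.552, but the proliferation genes include weaker ones. Over tested genes alone the medians lay closer, at 0.625 for 9 replication genes and 0.717 for 8 mitosis genes. At like WT level the difference from all genes went both ways. At 20 to 50 CPM the 4 genes Mcm6, Mki67, Pcna and Top2a had a median of 0.544 and all 1695 genes 0.454. At 5 to 10 CPM the 4 genes Cenpf, Kif11, Mcm5 and Tpx2 had 0.834 and all 1594 genes 0.753. At 10 to 20 CPM the 6 genes there had 0.599 and all 1671 genes 0.597, at 2 to 5 CPM 8 genes had 0.801 and all 1879 genes 0.979, and under 1 CPM 8 genes had 1.19 and all 6938 genes 2.13. At 1 to 2 CPM the 8 genes had 1.55 and all 1108 genes 1.25, and all 8 were missing (3 counts or fewer) from at least 1 WT library, as were 78.3% of all genes at that level.
The same strata give the KO loss: 4 of 6 genes at 10 to 20 CPM were missing from 4 or 5 KO libraries beside 67.5% of all genes, and 2 of 4 at 20 to 50 CPM beside 41.8%. At 5 to 10 CPM it was 4 of 4 beside 82.6%, and at 2 to 5 CPM 6 of 8 beside 87.4%. At 1 to 2 CPM and under 1 CPM it was 8 of 8 each, beside 89.4 and 90.3%.

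**Figure D5:**
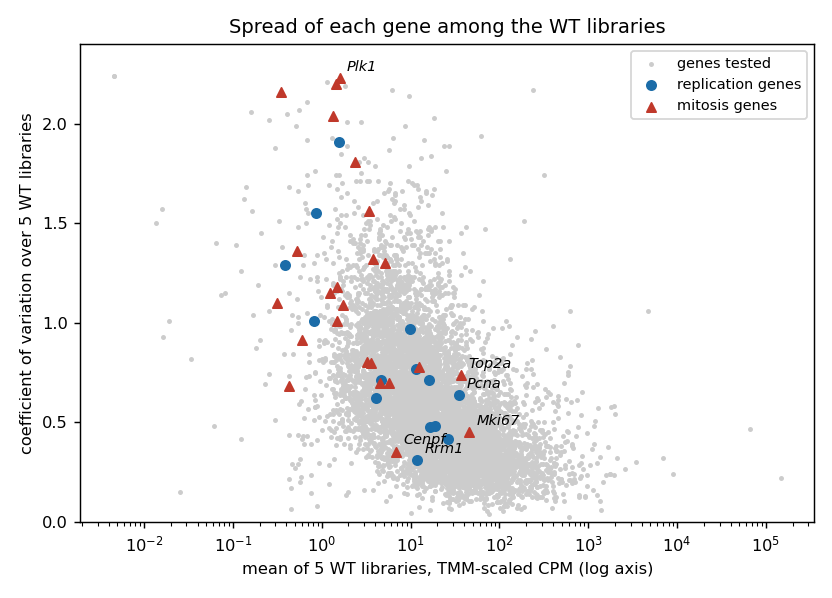
Coefficient of variation over the 5 WT libraries against the mean WT level in CPM (log axis), for all genes tested (grey), the replication genes (blue circles) and the mitosis genes (red triangles). Weak genes vary more in all sets, and Rrm1 and Cenpf lie low at 0.311 and 0.354 while Plk1 lies at 2.23.

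Of other genes of the cell cycle, 145 in 8 lists, 139 had counts, 81 were tested, 32 were lower in KO (39.5%, beside 27.1% of all tested genes) and 0 higher, with a median log2 fold change of -1.08. Of origin licensing and firing 4 of 9 tested genes were lower, of DNA polymerases and fork proteins 6 of 15, of the kinetochore and spindle checkpoint 2 of 5, of the spindle and cytokinesis 1 of 7, of condensin, cohesin and separase 3 of 12, of the APC 7 of 13, of G1 cyclins, E2F, RB and DREAM 7 of 18, and of checkpoint kinases and CDC25 2 of 2.
The replication genes with the smallest p in their lists were Orc2 and Clspn, of origin recognition and fork stability, with 642 and 790 counts in WT and 0 and 2 in KO (edgeR adjusted p = 0.00182 and 0.00396). Prim1, the catalytic primase subunit, and Rfc5, of the clamp loader, had 1233 and 749 counts in WT and 0 and 1 in KO (edgeR adjusted p = 0.00163 each).
Of mitosis, Incenp, the scaffold of Aurora B, and Zwint, of the kinetochore, had 1714 and 2074 counts in WT and 0 and 2 in KO (edgeR adjusted p = 0.00163 and 0.00176). Racgap1, of the cytokinesis complex with KIF23, had 2102 and 0, and the condensin genes Ncaph2 and Ncapd2 1350 and 2 and 659 and 0 (edgeR adjusted p = 0.00163 each). The APC subunits Cdc16 and Anapc2 had 1116 and 1 and 2435 and 0 (edgeR adjusted p = 0.00163 each).
Of the transcription factors, E2f5 and E2f3 had 1067 and 0 and 2003 and 2 (edgeR adjusted p = 0.00163 and 0.00165). The checkpoint kinases Atr and Atm had 1629 and 0 and 4894 and 1 (edgeR adjusted p = 0.00166 and 0.00438).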

How the data were processed

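Total RNA of sorted lung ILC2 was sequenced as 10 libraries, 5 WT and 5 KO, by a kit that keeps the strand (TruSeq Stranded total RNA, per the labels). The authors deposited raw counts of reads for each gene. STAR 2.6.0c, SAMtools 1.8 and HTSeq 0.9.1 with build GRCm38 are named in the submitters' processing notes; the annotation release, strand setting and filters were not stated in the sources used here. Genes inside the spans of other genes were mostly at 0, so such genes may have lost reads. Of 54838 identifiers, 54809 matched GENCODE M21 of GRCm38.

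Genes were tested with edgeR 4.0.16 under R 4.3.3, using filterByExpr with a minimum of 10 counts, TMM scaling, the quasi-likelihood test of KO against WT, and Benjamini-Hochberg adjustment over 7490 genes at 0.05. A standard error is the size of the log2 fold change divided by the square root of F. Both groups share 1 estimate of the spread in this test, although the KO libraries were less alike than the WT libraries. Over all tested genes the median Spearman rho between library pairs was 0.384 in KO and 0.774 in WT. The procedure was run on simulated data, whose outcome is not given here, and no result rests on it. Alternatives were DESeq2 1.42.0, voom with limma 3.58.1, RLE size factors, scaling by library size alone, a robust fit, 2 other filters, thinning to 3620002 counts, and leaving out libraries. The genes and lists were chosen with earlier results of these data known. By rule, per-library counts are given for up to 6 passing replication and 6 passing mitosis genes, the 4 others of highest WT level in each set, and genes seen in at least 3 KO libraries; of each other list, up to 2 passing genes a direction by smallest p. Ratios carry exact 95% intervals. Motif letters were searched in RefSeq promoter windows of GRCm38.p6.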

Additional observations from a re-analysis of the deposited data

Results flagged for a closer look

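In 10 of 26 groups of 5 libraries looked at (the 13 genes whose per-library counts were fixed by rule, where not all 5 libraries had 3 counts or fewer, and the sums), 1 library stood apart: its gap to the nearest other library was over 0.71 of the whole range. Chance alone marks about 1 in 20 groups of well-behaved values, and counts that are near 0 in most libraries are not such values. In KO library 1 this held for Mcm3 (0.999), Mki67 (0.793), Top2a (0.747), Kif23 (0.785) and the sum of the mitosis genes (0.882). In KO library 2 it held for Mcm5 and Mcm6, at 1 each. In KO library 4 it held for Pcna (1) and Kif11 (0.821). Of the WT groups it held for Pcna, where library 1 was highest (0.722).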

How the results depend on the processing

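No paired analysis was possible because the labels give the libraries no shared replicate numbers. Mcm4, Rrm1, Ccnb2 and Cenpf were called lower under every alternative in which they were tested, and Mcm5 under all but the one without KO libraries 1 and 5; thinning left Mcm5 and Ccnb2 untested. Against 2027 genes lower and 112 higher in the main test, a filter of 10 counts in 3 libraries gave 3179 and 297, thinning 1274 and 52, and leaving out KO libraries 1 and 5 gave 3291 and 348. The count of higher genes was also 193 with RLE size factors, 49 with library size alone, 1512 with DESeq2, 71 with voom and 2345 with no filter. The count of lower replication genes, 3 of 9 tested in the main test, was 5 of 9 with library size alone. It was 5 of 10 with DESeq2 and 5 of 12 without KO libraries 1 and 5. The count of lower mitosis genes, 2 of 8 tested in the main test, was 5 of 19 with DESeq2 and 9 of 24 with no filter. It was 8 of 19 with the filter of 10 counts in 3 libraries and 1 of 6 after thinning. Without KO libraries 1 and 5 it was 6 of 19. Of all tested genes, 27.1% were lower in the main test, 31.1% with library size alone, 23.3% with DESeq2 and 15.9% with no filter. The share was 31.9% with the filter of 10 counts, 21.2% after thinning and 33.4% without KO libraries 1 and 5. Other filters change which genes are tested; the cause of the other differences was not tested.

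The median log2 fold change of the tested replication genes, -3.52 in the main test, was -1.4 with RLE size factors, -5.08 with library size alone, -3.34 with DESeq2, -4.38 with voom, -3.88 with no filter, -3.39 with the filter of 10 counts in 3 libraries, 1.42 after thinning and -5.98 without KO libraries 1 and 5. That of the mitosis genes, -1.41, was 0.46 with RLE size factors, -3.34 with library size alone, -2.86 with DESeq2, -3.38 with voom, -6.41 with no filter, -5.92 with the filter of 10 counts in 3 libraries, -1.48 after thinning and -7.1 without KO libraries 1 and 5. All-gene medians moved too, to 0.09 with RLE size factors, -1.77 with library size alone and -3.58 with voom. Leaving out 1 library gave 1734 to 3350 lower genes (23.8 to 37.9% of those tested) and 82 to 333 higher genes. It gave 3 to 6 lower replication genes (9 to 11 tested) and 2 to 8 lower mitosis genes (8 to 12 tested). The medians were -7.33 to -3.14 for replication and -6 to -1.28 for mitosis. Without WT library 2 there were 4 lower mitosis genes of 10 tested, beside 24.9% of all tested genes.

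Among genes that did not pass, some log2 fold changes changed sign. With library size alone Mcm3 had -0.56, Pcna -0.04, Top2a -1.34, Ube2c -0.23 and Nusap1 -2.77. With voom Mcm3 had -4.38, Mcm6 -4.2, Pcna -5.05, Top2a -0.29 and Nusap1 -2.83. Mki67 had 1.21 with RLE size factors and 1.11 with DESeq2. Without KO libraries 1 and 5 Mcm3 had -11.84, Top2a -0.24, Ube2c -9.52 and Nusap1 -6.16. With 1 library left out, log2 fold changes ran from -7.79 to 3.66 for Mcm3, from -7.39 to 2.84 for Mcm6, from -9.15 to 1.56 for Pcna, from -0.61 to 1.83 for Top2a, from -2.2 to 4.7 for Ube2c and from -6.26 to 1.34 for Nusap1. Per library size the WT sums differed by a factor of 1.92 for replication and 2.82 for mitosis. With a window of 100 bases before the start, 69.7, 57.6 and 9.09% of the windows of these genes held CCAAT, CHR and E2F letters. These shares stand beside 23.4, 12.8 and 1.27% of all windows. At their mean WT level Cdk1, Bub1 and Ccne1 would hold 0.269 to 2.81 counts in a single KO library, so that depth limits what 1 library can show of them. Their pooled WT counts per scaled library size were at least 2.43-, 2.35- and 2.66-fold above the floor over the KO group. These floors cover counting error only and not the spread among WT libraries. WT library 3 held 57 of the 59 WT counts of Bub1 and 39 of the 67 of Ccne1, and Cdk1 was at 0 in WT libraries 1 and 2.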

Other observations

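Of the 81 tested genes of the other cell cycle lists, 3 had over 3 counts in every KO library, as did 7.06% of all tested genes: Ccnd2, Cdk6 and Rb1, which act in G1 before S phase. Ccnd2, cyclin D2, had 4776, 5801, 6554, 5331 and 5735 counts in WT libraries 1 to 5, against 1585, 1311, 633, 283 and 207 in KO. Its level was 142 ± 31.2 CPM for WT and 456 ± 790 CPM for KO (SD, n = 5 each; log2 fold change 1.68, SE 1.3, edgeR adjusted p = 0.399). Cdk6, the kinase that cyclin D2 activates, had 64310 counts in WT and 38101 in KO, 71.9% of the latter in library 3. The scaled KO mean of Cdk6 was the higher one, 1130 ± 1580 CPM against 311 ± 72.7 CPM for WT (log2 fold change 1.86, SE 1.45, edgeR adjusted p = 0.399). Rb1, the retinoblastoma protein that this kinase phosphorylates, had 27864 counts in WT and 21762 in KO, 71.4% of the latter in library 2 (edgeR adjusted p = 0.135). These 3 genes were singled out after their values were seen.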
